A study of Drosophila melanogaster with 8 samples.

Results

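Adenylyl cyclases are the enzymes that make cyclic AMP (cAMP) from ATP, and 10 of their genes were followed in whole testes of *Drosophila melanogaster* in which somatic gonadal cells expressed a short hairpin RNA against Enhancer of Polycomb, *E(Pc)*. The 10 genes are the testis ACX genes *ACXA* (FBgn0040510), *ACXB* (FBgn0040509), *ACXC* (FBgn0040508), *ACXD* (FBgn0040507) and *ACXE* (FBgn0040506), and the adenylyl cyclases *rut* (FBgn0003301), *Ac3* (FBgn0023416), *Ac13E* (FBgn0022710), *Ac76E* (FBgn0004852) and *Ac78C* (FBgn0024150). They were matched by gene symbol, with no threshold on their levels, and all 10 were found among the 14256 genes of the count table. RNA was sequenced from 2 libraries of Tj>E(Pc) shRNA testes (Tj-Gal4/+; UAS-E(Pc) shRNA/+) and 2 libraries of Tj-Gal4 control testes, all from adult males labelled as 5 days old. Both genotypes carry the Tj-Gal4 driver, which acts in cyst stem cells, cyst cells and hub cells, and the control lacks the shRNA transgene. The labels write the driver as Tj-Gal4/+ in the shRNA flies and as Tj-Gal4 in the control flies, so the number of driver copies may differ. Each library was made from a pair of testes, in which germ cells and somatic cells were sequenced together.

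A classical adenylyl cyclase sits in the membrane and is switched on by the stimulatory G protein alpha subunit. The cAMP it makes activates protein kinase A and other effectors until phosphodiesterases break it down. The ACX genes encode a divergent branch of this family that is known from the male germline, whereas *rut*, *Ac3*, *Ac13E*, *Ac76E* and *Ac78C* encode relatives of the mammalian membrane enzymes and are best known from neurons and other somatic tissues. In the fly, *rut* (rutabaga) is known for learning and memory.

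The 4 libraries held 6251181 and 3691459 gene-assigned counts in Tj>E(Pc) shRNA testes, and 3307767 and 4273908 in Tj-Gal4 testes. The value that the label predicts to be lower, *E(Pc)* itself, was not lower: it had 2685 and 1235 counts, or 39.8 and 33.5 cRPKM, in Tj>E(Pc) shRNA testes as labelled, and 854 and 1187 counts, or 27.0 and 27.2 cRPKM, in Tj-Gal4 testes (log2 fold change 0.44, adjusted p = 0.083, edgeR quasi-likelihood test). *E(Pc)* is also expressed in germ cells, and whole-testis RNA does not separate these from the cells that express the shRNA. Of 5 cyst lineage markers, *zfh1*, a transcription factor of early cyst cells, was called higher (log2 fold change 0.65, edgeR adjusted p = 0.0238). *so* was called lower (log2 fold change -1.38, edgeR adjusted p = 0.00751), and *tj*, *eya* and *chinmo* were not called. Of 6 measured early germline markers 4 were called higher and *bgcn* and *stet* were not called (median log2 fold change 1.57), and of 9 spermatocyte markers 4 were called higher (median 0.17), where 22.5% of all tested genes were called higher. No gene in the table exceeded 0.965 counts per base of its length, and the deposited counts may be occupied read positions, which saturate, rather than reads. The median log2 fold change was -0.39 over the 2764 tested genes with more than 0.3 counts per base and 0.21 over the other 8399. Of the denser genes 1.23% were called higher and 21.5% lower, against 29.6% and 8.08% of the others.

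No adenylyl cyclase member passed the test between genotypes. Among 11163 genes tested with the edgeR quasi-likelihood method, 33.9% were called at an adjusted p under 0.05 (22.5% higher and 11.4% lower in Tj>E(Pc) shRNA testes), and 0 of the 10 members were among them. At an unadjusted p under 0.05 there were 2, *ACXA* and *ACXC*. In CPM (counts scaled by library size and TMM), *ACXA*, *ACXB* and *ACXC* were lower in both Tj>E(Pc) shRNA libraries than in both Tj-Gal4 libraries, a pattern that 33.8% of all tested genes showed. No member was higher in both, a pattern of 38.9% of tested genes. The median log2 fold change was -0.46 over the 5 ACX genes and 0.10 over the other 5 members, beside 0.00 over all genes tested. The ACX median is the value of *ACXA*, a gene over 0.3 counts per base, a class with a median of -0.39. The other 5 members are all in the sparser class, with a median of 0.21. Without shRNA replicate 2 the ACX median was -0.15, and without shRNA replicate 1 the median of the other members was -0.32. In whole-testis RNA, fewer cells of a type and less RNA per cell cannot be told apart.

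Among the 10 members, the ACX genes except *ACXD* stood above the other cyclases in level. Levels are given as cRPKM, the authors' corrected RPKM (reads per kilobase of merged exons at a common library size). This scale corrects for gene length but not for saturation of densely covered genes, so levels of dense and sparse genes may stand closer together in it than in reads. *ACXA* and *ACXC* stood far above the rest at 96.0 ± 4.35 and 93.2 ± 2.21 cRPKM in Tj>E(Pc) shRNA testes (SD, n = 2 for all such values), and at 133 ± 8.28 and 133 ± 9.89 cRPKM in Tj-Gal4 testes. Their order relative to each other could not be told, since their ranges overlapped in both genotypes. *ACXB* and *ACXE* followed, with *ACXB* at 16.4 ± 7.49 and *ACXE* at 12.7 ± 2.57 cRPKM in Tj>E(Pc) shRNA testes, against 23.7 ± 1.72 and 10.2 ± 1.55 cRPKM in Tj-Gal4 testes. Those 2 genes overlapped in Tj>E(Pc) shRNA testes and were apart in Tj-Gal4 testes. *ACXD* was the exception within its group, as its level lay among those of *rut*, *Ac76E* and *Ac13E*, between 2.57 and 5.21 cRPKM over all 4 libraries. *Ac78C* and *Ac3* were last, with values from 0.532 to 1.21 cRPKM. Outside the 10 members, the cyclase genes *CG32301* and *CG32305* lay between 21.9 and 49.4 cRPKM, above *ACXE* in every library. The ACX genes together made up 93.4% and 95.3% of the summed cRPKM of the 10 members in Tj>E(Pc) shRNA testes, and 96.1% and 95.8% in Tj-Gal4 testes. *ACXA* and *ACXC* alone accounted for 76.7% and 84.4% in Tj>E(Pc) shRNA testes and for 85.5% and 83% in Tj-Gal4 testes. Summed over the 10 members, the level was 241 and 230 cRPKM in Tj>E(Pc) shRNA testes, against 326 and 305 cRPKM in Tj-Gal4 testes.

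**Figure D1:**
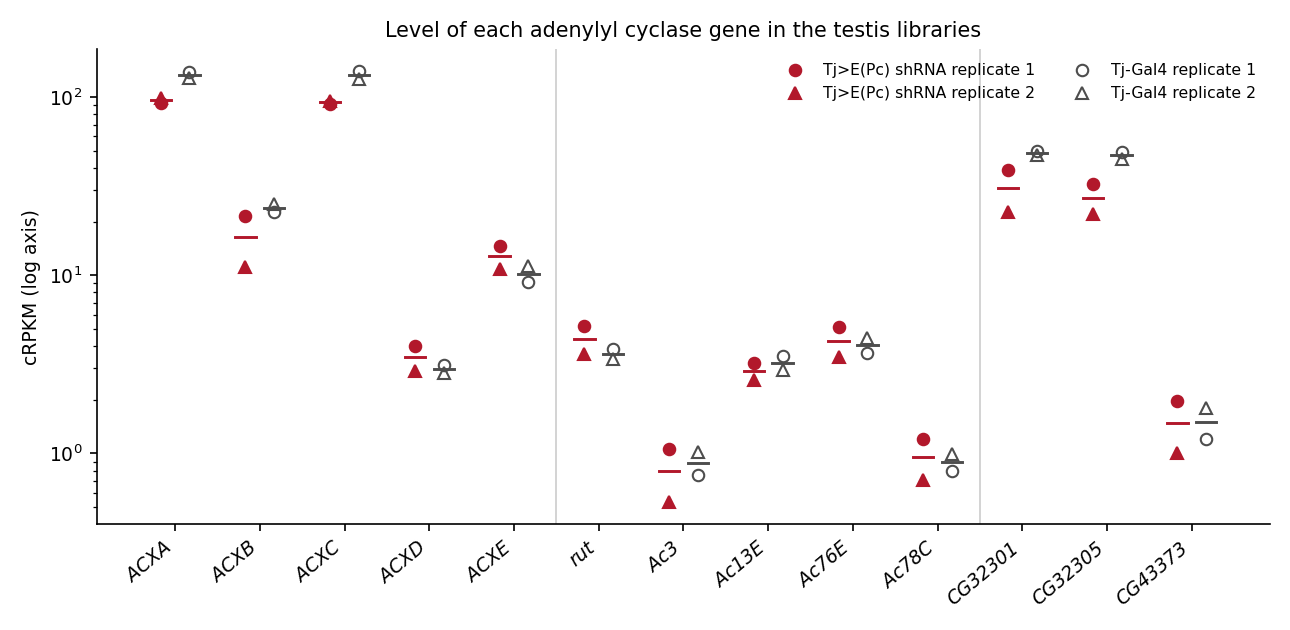
Level of each adenylyl cyclase gene in each library, as cRPKM on a log axis. Filled red symbols are the 2 Tj>E(Pc) shRNA libraries, open grey symbols the 2 Tj-Gal4 libraries, circles replicate 1, triangles replicate 2 and horizontal lines the means. Grey vertical lines separate the 5 ACX members, the other 5 members and 3 further cyclase genes. *ACXA* and *ACXC* lie between 91.6 and 140 cRPKM and *Ac3* and *Ac78C* near 1, and the red symbols are below the grey ones for *ACXA*, *ACXB* and *ACXC*.

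The 2 abundant genes were lower in Tj>E(Pc) shRNA testes without passing the test. *ACXA* (3572 bp of merged exons on 2L) had 2368 and 1376 counts in Tj>E(Pc) shRNA testes, against 1649 and 2084 counts in Tj-Gal4 testes. On the length- and depth-corrected scale this was 92.9 and 99.1 cRPKM in Tj>E(Pc) shRNA testes, against 138 and 127 cRPKM in Tj-Gal4 testes. The genotypes did not overlap, and replicates differed little (log2 ratio of replicate 1 to replicate 2 in CPM of -0.08 in shRNA and 0.13 in Tj-Gal4). The edgeR quasi-likelihood log2 fold change was -0.46 ± 0.19 (SE; 95% interval -0.88 to -0.05, adjusted p = 0.0768), or 0.725-fold. *ACXC* (3564 bp, 2L) had 2329 and 1313 counts, or 91.6 and 94.7 cRPKM, in Tj>E(Pc) shRNA testes, against 1667 and 2072 counts, or 140 and 126 cRPKM, in Tj-Gal4 testes. Both shRNA libraries were again below both controls, and the log2 fold change was -0.51 ± 0.19 (95% interval -0.93 to -0.10, edgeR adjusted p = 0.0558), or 0.700-fold. Both genes belong to the densely covered ones, with 0.385 to 0.663 counts per base for *ACXA* and 0.368 to 0.653 for *ACXC*, and their fold changes lie near the median of -0.39 of that class. When counts were converted from occupied positions to reads, the log2 fold changes were -0.48 and -0.55 and both genes were called lower (edgeR adjusted p = 0.0278 and 0.0169). That conversion called 20.0% of all genes lower. DESeq2, upper-quartile scaling and edgeR's exact test also called both lower, among 5.35%, 14.0% and 14.2% of all genes. Over the 11 alternatives with all 4 libraries the adjusted p ranged from 0.0278 to 0.368 for *ACXA* and from 0.0169 to 0.329 for *ACXC*.

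*ACXB* was lower in Tj>E(Pc) shRNA testes by as much as *ACXA* and *ACXC*, and its 2 shRNA libraries disagreed. *ACXB* (3557 bp, 2L) had 541 and 154 counts, or 21.6 and 11.1 cRPKM, in Tj>E(Pc) shRNA testes, against 267 and 408 counts, or 22.5 and 25 cRPKM, in Tj-Gal4 testes. Replicate 1 of the shRNA testes was close to the controls, and replicate 2 was far below them. The log2 ratio of these 2 replicates in CPM was 0.95 for *ACXB*, where 95% of all genes lay between -0.64 and 1.12. The edgeR log2 fold change was -0.51 ± 0.24 (95% interval -1.05 to 0.02, adjusted p = 0.118). It was -1.10 without shRNA replicate 1, where the test called it lower among 15.2% of all genes, and -0.15 without shRNA replicate 2, so the size of the difference was set by the choice of library.

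*ACXE* and *ACXD* lay on the other side of zero. *ACXE* (3448 bp, 2L) had 355 and 147 counts, or 14.6 and 10.9 cRPKM, in Tj>E(Pc) shRNA testes, against 105 and 179 counts, or 9.14 and 11.3 cRPKM, in Tj-Gal4 testes. Its genotypes overlapped, since shRNA replicate 2 was below control replicate 2, and the log2 fold change was 0.33 ± 0.18 (95% interval -0.08 to 0.73, edgeR adjusted p = 0.176). The log2 fold change of *ACXE* was 0.49 without shRNA replicate 2 and 0.09 without shRNA replicate 1. Its adjusted p was between 0.142 and 0.566 over the 11 alternatives with all 4 libraries. *ACXD* (4110 bp, 3L) had 115 and 47 counts, or 4.0 and 2.92 cRPKM, in Tj>E(Pc) shRNA testes, against 43 and 54 counts, or 3.14 and 2.84 cRPKM, in Tj-Gal4 testes. Replicate 1 of the shRNA testes was above both controls and replicate 2 between them, and the log2 fold change of 0.23 ± 0.27 (95% interval -0.37 to 0.82, edgeR adjusted p = 0.519) left either direction possible.

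In the RefSeq gene order *ACXC*, *ACXB*, *ACXA* and *ACXE* follow each other on 2L with no other gene of the count table between them. *ACXD* is on 3L, so the 5 ACX genes do not form a single cluster. The ACX genes are paralogs and only reads with a single alignment site were counted, so stretches that are alike between them may be counted less. Ratios within a library do not depend on its depth scaling and let the 4 neighbouring genes be compared with each other. Per base of length, *ACXC* was 0.986 and 0.956 times *ACXA* in Tj>E(Pc) shRNA testes, and 1.01 and 0.996 times in Tj-Gal4 testes. *ACXC* and *ACXA* thus had nearly equal levels in each of the 4 libraries. *ACXB* was 0.229 and 0.112 times *ACXA* in Tj>E(Pc) shRNA testes, a range that enclosed the 0.163 and 0.197 of Tj-Gal4 testes. *ACXE* was 0.155 and 0.111 times *ACXA* in Tj>E(Pc) shRNA testes, and 0.0660 and 0.0890 times in Tj-Gal4 testes. The ratio of *ACXE* to *ACXA* was therefore higher in both shRNA libraries, by 0.78 on the log2 scale. An exact two-sided permutation test gave p = 0.333, which is the smallest that 2 against 2 libraries allow, and the 3 ratios were the ones examined for these genes. *ACXA* is among the genes over 0.3 counts per base, whose median log2 fold change was -0.39. *ACXE* is among the sparser genes, whose median was 0.21. The part of this general difference in the *ACXE* to *ACXA* ratio was not tested. After conversion of occupied positions to reads, *ACXE* was 0.0999 and 0.0896 times *ACXA* in Tj>E(Pc) shRNA testes, and 0.0499 and 0.0609 times in Tj-Gal4 testes. The ratio was thus lower in every library after conversion, and the same held for *ACXB*, at 0.152 and 0.0910 in Tj>E(Pc) shRNA testes and 0.126 and 0.139 in Tj-Gal4 testes. The difference between genotypes for *ACXE* was also 0.78 after counts were converted, an alternative chosen for this ratio after seeing the data.

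**Figure D2:**
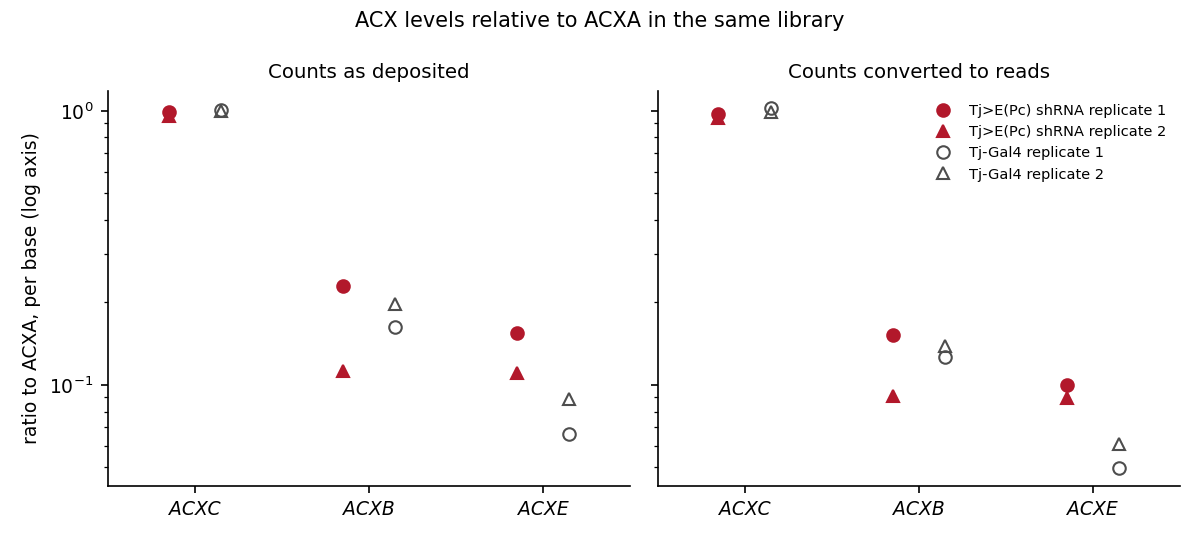
Ratio of *ACXC*, *ACXB* and *ACXE* to *ACXA* in the same library, per base, on a log axis, from counts as deposited (left) and after conversion of occupied positions to reads (right). Filled red symbols are Tj>E(Pc) shRNA libraries and open grey symbols Tj-Gal4 libraries, with circles for replicate 1 and triangles for replicate 2. The *ACXC* ratio stays near 1, the shRNA values of *ACXB* enclose those of the controls, and both shRNA values of *ACXE* are above both control values.

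The cyclases outside the ACX group were expressed at low levels, and all 5 had overlapping genotypes. *rut* (9335 bp, X), the calcium- and calmodulin-responsive cyclase of the fly, had 343 and 132 counts, or 5.21 and 3.62 cRPKM, in Tj>E(Pc) shRNA testes, against 120 and 147 counts, or 3.86 and 3.41 cRPKM, in Tj-Gal4 testes. Only shRNA replicate 1 stood above both controls, and the log2 fold change was 0.30 ± 0.19 (95% interval -0.12 to 0.73, edgeR adjusted p = 0.224). It was 0.52 without shRNA replicate 2 and 0.01 without shRNA replicate 1. With all 4 libraries the adjusted p of *rut* ranged from 0.176 to 0.875 over the alternatives. *Ac76E* (5321 bp, 3L) had 191 and 72 counts, or 5.13 and 3.46 cRPKM, in Tj>E(Pc) shRNA testes, against 65 and 108 counts, or 3.67 and 4.43 cRPKM, in Tj-Gal4 testes. The 2 shRNA values enclosed the controls, and the log2 fold change was 0.10 ± 0.24 (edgeR adjusted p = 0.768). The whole gene span of *Ac76E* overlaps 6 other genes of the count table, that of *CG43373* overlaps 3 and that of *Ac13E* overlaps 1. Overlap of their merged exons was not examined and no strand is stated for the counting. Whether reads of these genes entered the counts of the 3 cyclases is therefore not known.

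*Ac13E* (7171 bp, X), had 162 and 72 counts, or 3.20 and 2.57 cRPKM, in Tj>E(Pc) shRNA testes, against 84 and 98 counts, or 3.51 and 2.95 cRPKM, in Tj-Gal4 testes. Its log2 fold change was -0.15 ± 0.21 (95% interval -0.62 to 0.33, edgeR adjusted p = 0.605). *Ac78C* (6415 bp, 3L) had 53 and 18 counts in Tj>E(Pc) shRNA testes and 17 and 29 in Tj-Gal4 testes. *Ac3* (5172 bp, 2L) had 37 and 11 counts in Tj>E(Pc) shRNA testes and 13 and 24 in Tj-Gal4 testes. At this depth the intervals of both genes were wide, with log2 fold changes of 0.12 for *Ac78C* (95% interval -0.71 to 0.94) and -0.13 for *Ac3* (95% interval -1.06 to 0.79). A difference within these intervals was not detectable at this depth.

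**Figure D3:**
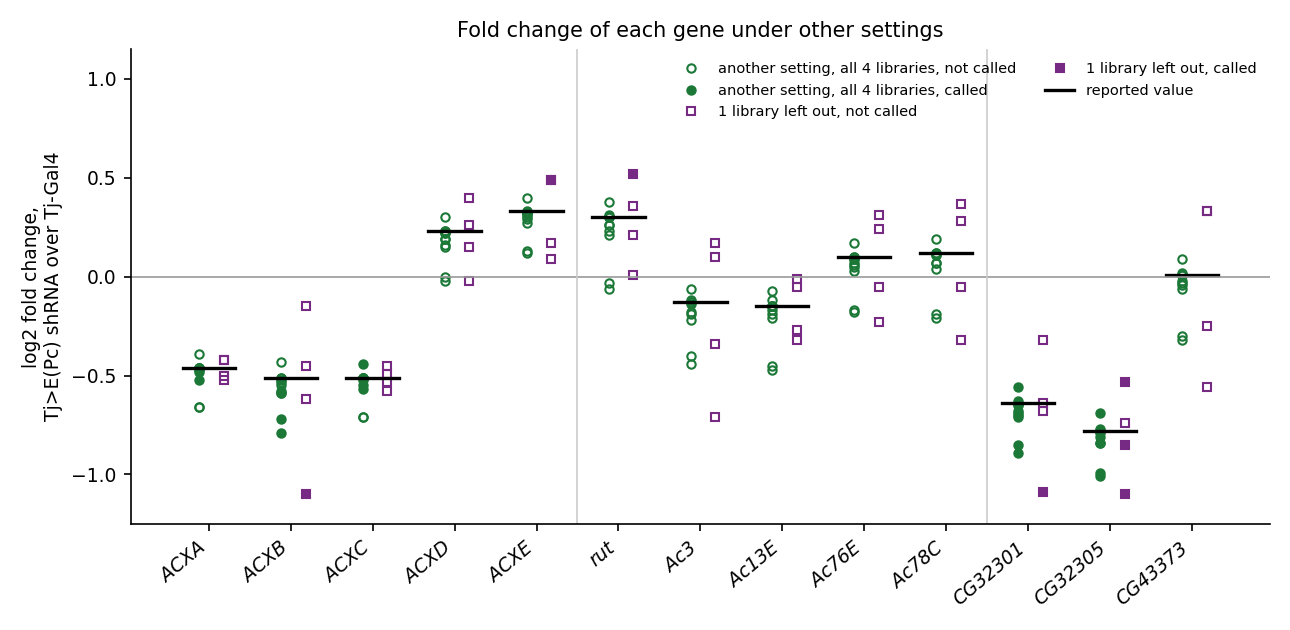
Log2 fold change of each adenylyl cyclase gene, Tj>E(Pc) shRNA over Tj-Gal4. Black lines are the reported values, green circles the values under other settings with all 4 libraries and purple squares those with 1 library left out, and filled symbols passed an adjusted p of 0.05. The squares come from fits with a lone library in a genotype, so a filled square is not read as a call. *ACXA*, *ACXB* and *ACXC* stay below 0 throughout and *ACXE* above 0, while *ACXD*, *rut*, *Ac3*, *Ac76E*, *Ac78C* and *CG43373* cross 0.

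Replicate 1 of the Tj>E(Pc) shRNA testes had the higher CPM for 8 of the 10 members, all except *ACXA* and *ACXC*. The log2 ratio of the 2 shRNA replicates was 0.89 for *Ac3*, 0.70 for *Ac78C*, 0.55 for *Ac76E*, 0.52 for *rut*, 0.43 for *ACXD*, 0.41 for *ACXE* and 0.31 for *Ac13E*, beside a median of 0.04 over all genes. In Tj-Gal4 testes 5 members were higher in replicate 1 and 5 in replicate 2. The shRNA replicate 1 library is also the deepest, 1.89 times the shallowest, and the part of depth in this spread was not tested.

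Beyond the 10 members, 3 further genes carry the synonym AC, for adenylyl cyclase, in the RefSeq gene table, and 2 of them were called lower, where 11.4% of all tested genes were called lower. *CG32301* and *CG32305* follow *ACXD* on 3L with no other gene of the count table between them. *CG32301* (FBgn0052301, 3391 bp) had 932 and 300 counts, or 38.8 and 22.7 cRPKM, in Tj>E(Pc) shRNA testes, against 558 and 741 counts, or 49.4 and 47.5 cRPKM, in Tj-Gal4 testes. It was lower in both shRNA libraries, with a log2 fold change of -0.64 ± 0.22 (edgeR adjusted p = 0.0438). *CG32305* (FBgn0052305, 3495 bp) had 805 and 299 counts, or 32.5 and 21.9 cRPKM, in Tj>E(Pc) shRNA testes, against 573 and 724 counts, or 49.2 and 45.0 cRPKM, in Tj-Gal4 testes. It too was lower in both shRNA libraries, with a log2 fold change of -0.78 ± 0.19 (edgeR adjusted p = 0.0104), or 0.583-fold. As for *ACXB*, shRNA replicate 2 was the lower one, with log2 ratios of replicate 1 to replicate 2 of 0.78 for *CG32301* and 0.57 for *CG32305*. The log2 fold change of *CG32301* was -1.09 without shRNA replicate 1 and -0.32 without shRNA replicate 2. It was -0.64 without Tj-Gal4 replicate 1 and -0.68 without Tj-Gal4 replicate 2. That of *CG32305* was -1.1 and -0.53 without shRNA replicate 1 and 2, and -0.74 and -0.85 without Tj-Gal4 replicate 1 and 2. Such fits leave a lone library in a genotype, so only effect sizes are given. Their neighbour *ACXD* was 0.102 and 0.129 times *CG32301* per base in Tj>E(Pc) shRNA testes, and 0.0636 and 0.0601 times in Tj-Gal4 testes, a log2 difference of 0.89 (exact permutation p = 0.333, the smallest possible). *CG43373* (FBgn0263131, 7029 bp), the remaining one, had 95 and 28 counts in Tj>E(Pc) shRNA testes and 28 and 57 in Tj-Gal4 testes, with a log2 fold change of 0.01 ± 0.35 (edgeR adjusted p = 0.977).

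The nearest gene of the count table on each side of these 13 cyclase genes was examined as a local comparison. Leaving out the cyclases themselves there were 16 such neighbours, of which 12 could be tested, 2 were called higher and 2 lower, a share close to the 33.9% called among all tested genes. *CG14408* beside *rut* (log2 fold change 0.91, edgeR adjusted p = 0.00441) and *Df31* beside *Ac3* (1.27, edgeR adjusted p = 0.000395) were higher in Tj>E(Pc) shRNA testes, while *rut* and *Ac3* were not called. *CG1275*, next to *CG32305*, was lower (-0.62, edgeR adjusted p = 0.0125), and so was *CG32219*, which overlaps *Ac76E* (-0.56, edgeR adjusted p = 0.00933). The 4 genes on 2L are flanked by *kek1*, which was not called (-0.27 ± 0.26), and by *CG16800*, which had 3 and 1 counts in Tj>E(Pc) shRNA testes and 5 and 4 in Tj-Gal4 testes and was too low to test.

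Other listed genes of cAMP signalling and cyclic nucleotide breakdown changed in both directions. The cAMP lists hold 21 genes for G protein subunits, protein kinase A, phosphodiesterases and cAMP effectors. Their phosphodiesterases are those of cyclic nucleotides in general, so a listed one, such as *Pde6*, need not act on cAMP. Of the 21 genes 17 were matched in the count table and tested, and 4 were higher and 3 lower in Tj>E(Pc) shRNA testes. *Galphas*, the stimulatory G protein subunit that activates membrane cyclases, had 19.8 and 18.6 cRPKM in Tj>E(Pc) shRNA testes, against 11 and 14.1 cRPKM in Tj-Gal4 testes (log2 fold change 0.61 ± 0.18, edgeR adjusted p = 0.0295). The 2 other G protein subunits listed were not called. *Pka-C1*, the main catalytic subunit of protein kinase A, had 23.8 and 21.8 cRPKM in Tj>E(Pc) shRNA testes, against 14.8 and 17.3 cRPKM in Tj-Gal4 testes (0.51 ± 0.14, edgeR adjusted p = 0.0207). *Pka-R2*, a regulatory subunit of the same kinase, was lower at 47.3 and 54.8 cRPKM in Tj>E(Pc) shRNA testes, against 75.2 and 65.6 cRPKM in Tj-Gal4 testes (-0.46 ± 0.16, edgeR adjusted p = 0.0453). Both changes showed in both shRNA libraries.

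Among the phosphodiesterases, *dnc* (dunce), which degrades cAMP, had 3.83 and 2.97 cRPKM in Tj>E(Pc) shRNA testes, against 1.94 and 2.32 cRPKM in Tj-Gal4 testes (log2 fold change 0.68 ± 0.22, edgeR adjusted p = 0.0364). *Pde6* had 9.08 and 7.87 cRPKM in Tj>E(Pc) shRNA testes, against 11.2 and 12.4 cRPKM in Tj-Gal4 testes (-0.47 ± 0.14, edgeR adjusted p = 0.0287). Among effectors and anchors, *Crtc*, a coactivator of CREB, was higher at 22.4 and 19.3 cRPKM in Tj>E(Pc) shRNA testes, against 12 and 11.2 cRPKM in Tj-Gal4 testes (0.86 ± 0.14, edgeR adjusted p = 0.00175). *nvy* (nervy), an anchoring protein of protein kinase A, was lower at 11.2 and 9.51 cRPKM in Tj>E(Pc) shRNA testes, against 16.0 and 19.2 cRPKM in Tj-Gal4 testes (-0.76 ± 0.15, edgeR adjusted p = 0.00481). The 10 genes of these lists that were not called had log2 fold changes between -0.45 and 0.53. The share of called genes, 7 of 17, stands beside the 33.9% of all genes tested.

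**Figure D4:**
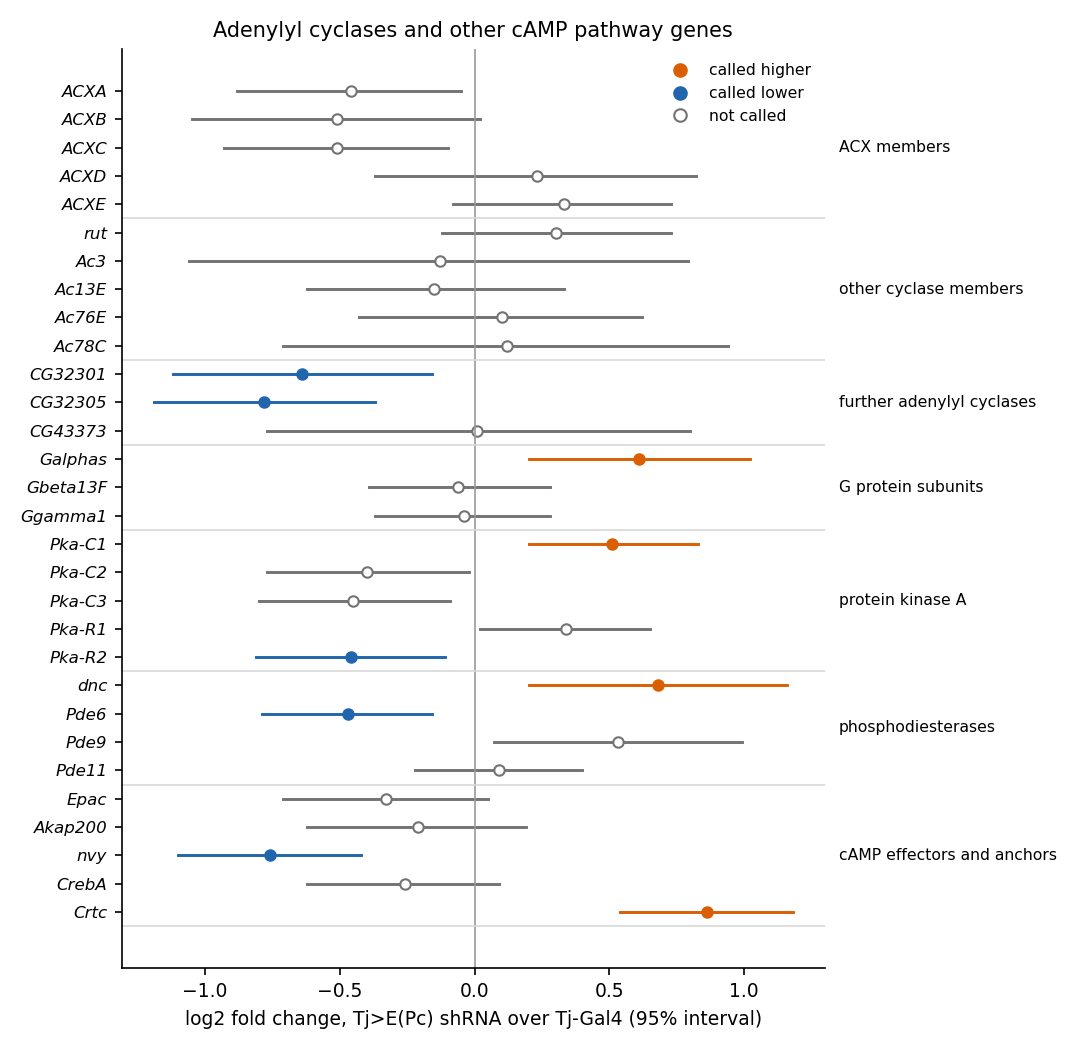
Log2 fold change, Tj>E(Pc) shRNA over Tj-Gal4, of the 13 adenylyl cyclase genes and the 17 tested genes of the cAMP lists, with 95% intervals. Orange points were called higher, blue points lower and open points were not called at an adjusted p of 0.05. None of the 10 members is called, *CG32301* and *CG32305* are lower, and the called genes of the cAMP lists lie on both sides of 0.

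Marker genes of other cell types moved between genotypes beside the ACX values. All 12 measured spermatid markers had negative log2 fold changes (median -0.44), and their summed level was 1200.4 and 1769.7 CPM in Tj>E(Pc) shRNA testes, against 2284.1 and 1787.8 CPM in Tj-Gal4 testes. Only *fzo*, a mitochondrial fusion gene of spermatids, was called lower, with 1861 and 1011 counts in Tj>E(Pc) shRNA testes, against 1365 and 1642 counts in Tj-Gal4 testes (-0.55, edgeR adjusted p = 0.0372). For other genes of the list, such as *Mst87F* with 357 and 328 counts in Tj>E(Pc) shRNA testes and 342 and 352 in Tj-Gal4 testes, the counts hardly differed between libraries of different depth, and their scaled levels were lowest in the deepest library and highest in the shallowest. The summed level of the early germline list was 527.8 and 526.0 CPM in Tj>E(Pc) shRNA testes, against 352.1 and 318.3 CPM in Tj-Gal4 testes. That of the spermatocyte list was 867.6 and 891.4 CPM in Tj>E(Pc) shRNA testes, against 763.6 and 742.1 CPM in Tj-Gal4 testes. Both lists were above the controls in both shRNA libraries, and no measured marker of these 3 germline lists was at 0.

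Somatic marker lists were mixed, lower or without a call, where 22.5% of all tested genes were called higher and 11.4% lower. Of 3 hub markers 2 were called lower (*hh* -1.26, *upd1* -0.45), and the summed level of the list was 166.3 and 147.9 CPM in Tj>E(Pc) shRNA testes, against 216.5 and 239.4 CPM in Tj-Gal4 testes. Of 5 cyst lineage markers *zfh1* was called higher and *so* lower (-1.38), with a summed level of 676.5 and 601.3 CPM in Tj>E(Pc) shRNA testes, against 519.2 and 522.2 CPM in Tj-Gal4 testes. Most of that sum is *chinmo*, which was not called. It had 457 and 439 CPM in Tj>E(Pc) shRNA testes, against 332 and 309 CPM in Tj-Gal4 testes. Of 5 measured muscle sheath markers 1, *Act57B*, was called lower (-0.53), and the list summed to 328.4 and 324.4 CPM in Tj>E(Pc) shRNA testes, against 404.4 and 377.4 CPM in Tj-Gal4 testes. Of 4 tested neuronal markers *nSyb* (-1.90) and *brp* (-1.03) were called lower and *futsch* higher (2.04). The neuronal list summed to 102.3 and 62.7 CPM in Tj>E(Pc) shRNA testes, against 120.3 and 137.3 CPM in Tj-Gal4 testes. Of 2 ejaculatory markers *EbpIII* was called higher (0.7, edgeR adjusted p = 0.0174) and *Ebp* lower (-1.67, edgeR adjusted p = 0.00441). Of 3 accessory gland markers only *Acp36DE* could be tested, and it was not called (0.21, edgeR adjusted p = 0.253). The part of a changed cell makeup in the values of the cyclases was not tested.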

How the data were processed

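Whole-testis RNA-seq was analysed for 2 Tj>E(Pc) shRNA and 2 Tj-Gal4 libraries; 4 ChIP-seq samples were not analysed here. The authors aligned single-end reads to dm3 with Bowtie 0.12.7, kept reads with a single alignment site and deposited whole counts per gene over merged exons. Their methods give a read over overlapping genes as split evenly, yet all deposited counts are whole. The deposited cRPKM are RPKM values that the authors computed from edgeR pseudo-counts at a common library size. The submitters' processing notes also name CASAVA 1.7.

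Counts were tested with edgeR 4.0.16 (R 4.3.3; TMM, filterByExpr, quasi-likelihood F test, Benjamini-Hochberg adjustment over 11163 genes, adjusted p under 0.05). The 95% intervals combine the fold change, its SE and the degrees of freedom of that test. DESeq2 1.42.0 and limma 3.58.1 on log2(cRPKM + 1) were alternatives, with other scalings, filters, a length trend, a conversion of occupied positions to reads and each library left out. The edgeR steps were tested on simulated data. Exact permutation tests served single ratios. Depth ranged from 3307767 to 6251181 counts per library. Intervals cover the spread between these libraries only. Symbols were matched for 13564 of 14256 IDs; *Pde1c*, *Pde8*, *rg* and *CrebB* were not matched. The members and gene lists were chosen with earlier results of these data known. The naming rule covers all members, the further adenylyl cyclases, called genes of the cAMP lists, nearest neighbours and *E(Pc)*; the cell type markers named beside them, *Gyc88E* and *Gyc32E* were chosen after their values were seen. Gene order and overlaps came from gene starts and ends in the RefSeq table of Release 6, and nearest neighbours were sought among genes of the count table.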

Additional observations from a re-analysis of the deposited data

How the results depend on the processing

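No setting with all 4 libraries called a member higher. The number of members called lower was 0, and 0 also with a minimum of 10 counts in every library. It was 2 (*ACXA* and *ACXC*) under DESeq2, upper-quartile normalization, the edgeR exact test and the conversion of occupied positions to reads. These settings called 5.35%, 14.0%, 14.2% and 20.0% of all genes lower. The number of members called lower was 1 under library size alone (*ACXC*). It was also 1 (*ACXB*) under no filter on low counts, the length trend, limma, and the replicate block with and without the length trend. The settings with 1 member called lower gave shares over all genes from 7.95% (replicate block) to 14.3% (length trend). With crossed numbers in the replicate block, chosen after seeing the data, 0 members were called higher and 3 lower. That setting called 28.6% of all genes higher and 27.0% lower. The replicate numbers did not vary together between genotypes (r = -0.25 across 11163 genes). With 1 library left out, the lone library is assumed to vary like the others, so only effect sizes are given here for these fits. The median log2 fold change of the ACX genes was -0.66 with the length trend removed, with or without the replicate block, and -0.45 to -0.15 with 1 library left out. That of the other 5 members was -0.21 with both the block and the length trend, and -0.32 to 0.31 with 1 library left out.

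Over 108 values of the 10 members under alternatives with all 4 libraries, 87 kept direction and side of the threshold, 14 passed the threshold in the same direction and 7 changed sign without a call. With the length trend removed, *rut* was at -0.03, *Ac76E* at -0.17, *Ac78C* at -0.19 and *CG43373* at -0.30. With the replicate block added, *ACXD* was at -0.02, *rut* at -0.06, *Ac76E* at -0.18, *Ac78C* at -0.21 and *CG43373* at -0.32. *CG43373* was also at -0.06 under DESeq2, -0.04 with the replicate block, -0.03 after conversion to reads and -0.02 under limma. The cause of these changes was not tested. With 1 library left out, *ACXD* ranged over -0.02 to 0.40, *Ac3* over -0.71 to 0.17, *Ac76E* over -0.23 to 0.31, *Ac78C* over -0.32 to 0.37 and *CG43373* over -0.56 to 0.33. *CG32301* and *CG32305* were called lower in 11 of 11 alternatives with all 4 libraries. Over all genes, DESeq2 called 16.9%, the replicate block 26.8% and its crossed form 55.6%, against 33.9% in the reported test.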

Other observations

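Guanylyl cyclases, which make cyclic GMP and are related to the adenylyl cyclases, were scarce. Of 7 listed genes 6 were in the count table and 2 were high enough to test, and none was called with edgeR (0 also at an unadjusted p under 0.05). *Gyc88E* had 66 and 34 counts in Tj>E(Pc) shRNA testes and 31 and 46 in Tj-Gal4 testes (log2 fold change -0.10 ± 0.29). *Gyc32E* had 34 and 15 counts in Tj>E(Pc) shRNA testes and 15 and 29 in Tj-Gal4 testes (-0.32 ± 0.37). Both genes had overlapping genotypes and levels near those of *Ac78C* and *CG43373*, between 1.07 and 2.27 cRPKM.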
